A study of Mus musculus with 12 samples.

Results

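The 10 genes of the transforming growth factor-β (TGF-β) pathway described here are the ligands *Tgfb1*, *Tgfb2* and *Tgfb3*, the receptors *Tgfbr1*, *Tgfbr2* and *Tgfbr3*, the receptor-regulated Smads *Smad2* and *Smad3*, and the inhibitory Smads *Smad6* and *Smad7*. They were chosen by gene symbol, and all 10 had a row among the 54532 genes listed. RNA was sequenced from the livers of 12 male C57BL/6J mice, 3 in each of 4 diet groups. The diets began at 5 weeks of age and lasted 26 weeks. ND-fed mice received a normal diet, control mice a high-fat diet, HYA-treated mice the high-fat diet with 1% HYA, and LA-treated mice the high-fat diet with 1% LA. HYA (hydroxy-cis-octadecenoic acid) is a hydroxy fatty acid made from linoleic acid (LA) by lactic acid bacteria of the gut, which differs from LA by the addition of water across a double bond.

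TGF-β ligands are secreted in a latent complex and, once released, bind a pair of serine/threonine kinase receptors. The type II receptor TGFBR2 activates the type I receptor TGFBR1, which phosphorylates SMAD2 and SMAD3, and these enter the nucleus with SMAD4 to regulate transcription, whereas SMAD6 and SMAD7 oppose the signal. In liver the pathway is known for the activation of hepatic stellate cells and the production of collagen. The mRNA level of a Smad carries no measure of its phosphorylation, which was not analysed here.

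The values are fragments scaled to gene length and library size (FPKM), so that levels may be compared between genes per length. Each mouse had 17169064 to 25220880 fragments assigned to genes. The library size that the FPKM imply is not this number but 0.9172 to 0.9526 times it in ND-fed, 1.034 to 1.099 in control, 0.9801 to 1.009 in HYA-treated and 1.049 to 1.064 in LA-treated mice. Taking the fragments on genes as library size moved the median log2 difference of all genes by 0.15 in control against ND-fed mice and by −0.081 in HYA-treated against control mice. It is given below as scaling to fragments on genes where it changed a call. Groups were compared on the log2(FPKM + 1) scale with limma and Benjamini-Hochberg adjustment over the 11083 genes that averaged 1 FPKM or more, and a change was called at an adjusted p under 0.05. A difference on this scale is called a log2 difference below, and this scale understates changes of genes at low FPKM. Of the 10 genes, 8 passed the filter, and *Tgfb2* and *Tgfb3* did not. As the livers were sequenced whole, fewer cells of a type and less RNA per cell cannot be told apart.

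The tissue label was checked against marker genes. All 7 hepatocyte markers were among the tested genes, and *Alb*, which encodes albumin, was the most abundant at a mean of 23930 FPKM. Of 6 markers of pancreatic acinar cells, *Cpa1*, *Pnlip*, *Amy2a5* and *Try4* were at 0 in every mouse, and *Cela1* was the most abundant at a mean of 6.16 FPKM. The 4 adipocyte markers, of which *Adipoq* was the most abundant, summed to at most 0.422 FPKM in any mouse.

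**Figure D1:**
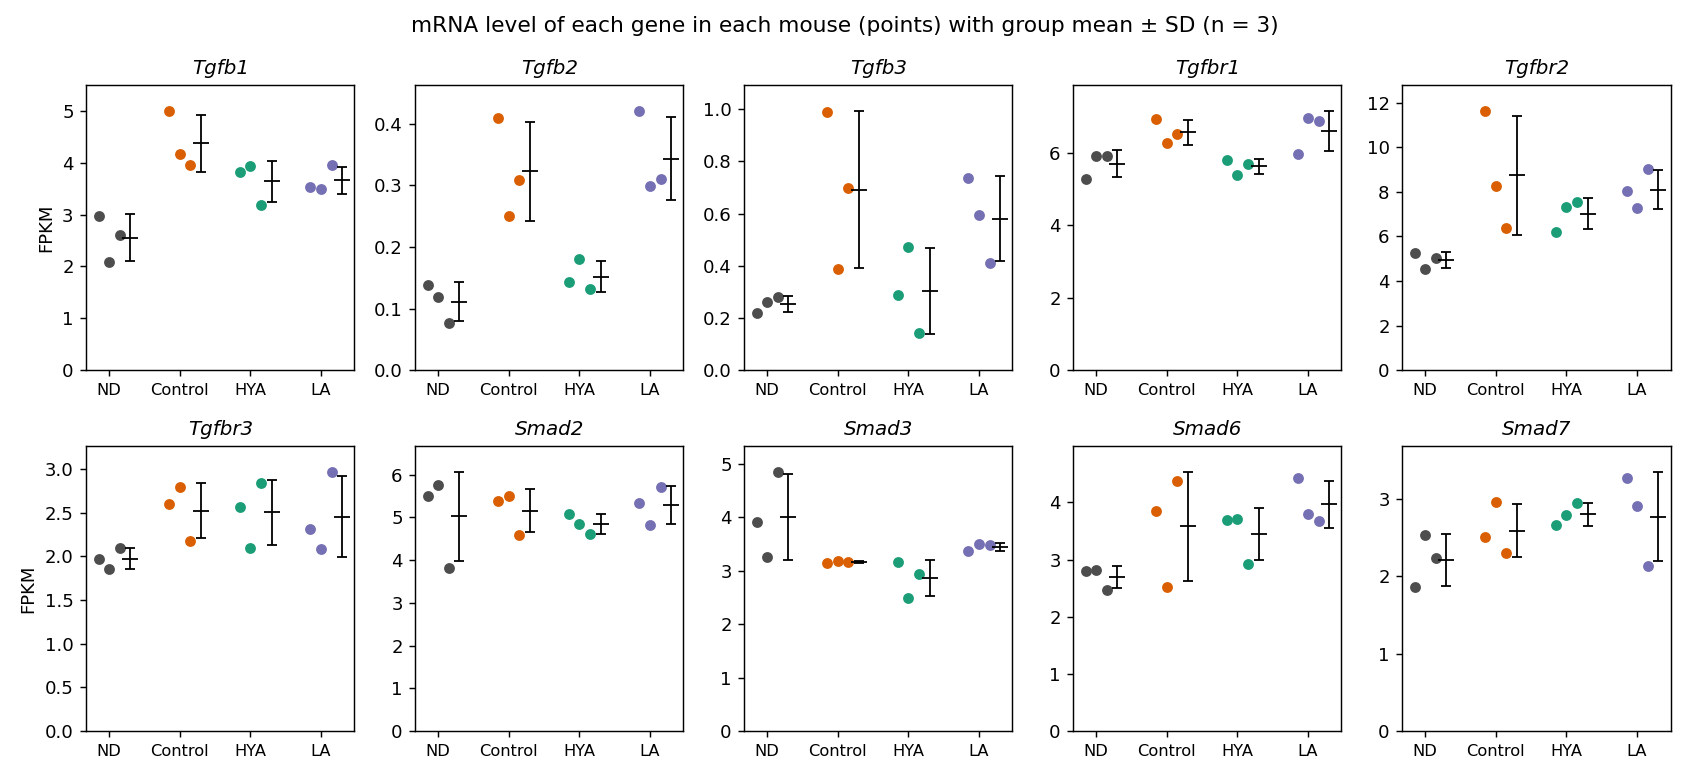
FPKM of each of the 10 genes in each mouse, by diet group on the horizontal axis, with points for mice and bars for the group mean ± SD (n = 3). Each vertical axis begins at 0 and has its own scale, and the 3 ND-fed mice lie below every other mouse for *Tgfb1* and *Tgfbr2*.

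Among the ligands, *Tgfb1* (ENSMUSG00000002603, chromosome 7, 25687002 to 25705077) was the most abundant, and it encodes the isoform best known in liver fibrosis. Its mRNA was at 2.98, 2.08 and 2.60 FPKM in ND-fed mice, 5.00, 4.16 and 3.95 in control mice, 3.82, 3.93 and 3.19 in HYA-treated mice, and 3.53, 3.49 and 3.96 in LA-treated mice. The 3 ND-fed mice were below each of the 9 mice on a high-fat diet. Group means ± SD (n = 3) were 2.56 ± 0.449, 4.37 ± 0.554, 3.65 ± 0.396 and 3.66 ± 0.262 FPKM in ND-fed, control, HYA-treated and LA-treated mice. *Tgfb1* was higher in control mice than in ND-fed mice (log2 difference 0.60, 95% interval 0.36 to 0.83, adjusted p = 0.00162, limma and Benjamini-Hochberg), in HYA-treated than in ND-fed mice (log2 difference 0.39, 95% interval 0.15 to 0.63, adjusted p = 0.0312, limma and Benjamini-Hochberg), and in LA-treated than in ND-fed mice (log2 difference 0.40, 95% interval 0.16 to 0.63, adjusted p = 0.0171, limma and Benjamini-Hochberg). Each of the 3 HYA-treated mice was below each of the 3 control mice, but the difference did not pass the test (log2 difference −0.21, 95% interval −0.44 to 0.029, adjusted p = 0.333, limma and Benjamini-Hochberg), nor did that between LA-treated and control mice, whose ranges overlapped (log2 difference −0.20, 95% interval −0.44 to 0.035, adjusted p = 0.999, limma and Benjamini-Hochberg). The call between control and ND-fed mice held in all 15 alternative settings (adjusted p from 0.000480 to 0.0130, limma and Benjamini-Hochberg). That between HYA-treated and ND-fed mice held in 9 of 15 alternative settings (adjusted p from 0.0193 to 0.107, limma and Benjamini-Hochberg). It was lost without a filter (0.0748), in a fit of only these groups (0.0678), without ND-fed mouse 2 (0.107) or 3 (0.0611) and without HYA-treated mouse 1 (0.0929) or 2 (0.104). The call between LA-treated and ND-fed mice was lost without ND-fed mouse 2 (0.0642) or LA-treated mouse 3 (0.0621, limma and Benjamini-Hochberg).

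*Tgfb2* (ENSMUSG00000039239, chromosome 1, 186622792 to 186705989), another ligand, was at 0.138, 0.120 and 0.0769 FPKM in ND-fed mice, 0.409, 0.251 and 0.308 in control mice, 0.142, 0.181 and 0.133 in HYA-treated mice, and 0.421, 0.300 and 0.310 in LA-treated mice. The 3 HYA-treated mice were below each control and each LA-treated mouse and overlapped the range of ND-fed mice. Group means ± SD (n = 3) were 0.111 ± 0.0312, 0.323 ± 0.0805, 0.152 ± 0.0255 and 0.344 ± 0.0674 FPKM in ND-fed, control, HYA-treated and LA-treated mice. These levels rest on few fragments, 33 in all over the 3 ND-fed, 119 over the control, 54 over the HYA-treated and 129 over the LA-treated mice. Of 12 exact two-sided permutation tests over mice for *Tgfb2* and *Tgfb3*, *Tgfb2* gave p = 0.1, the smallest value that 3 against 3 mice can give, for control against ND-fed, LA-treated against ND-fed, HYA-treated against control and HYA-treated against LA-treated mice. Genes averaging 0.1 FPKM or more included *Tgfb2*, which then passed between control and ND-fed mice (log2 difference 0.25, adjusted p = 0.0144) and between LA-treated and ND-fed mice (0.27, adjusted p = 0.0108, limma and Benjamini-Hochberg) and not between HYA-treated and control mice (−0.20, adjusted p = 0.148, limma and Benjamini-Hochberg). Without any filter the adjusted p was 0.00849, 0.00631 and 0.124, respectively (limma and Benjamini-Hochberg). Between HYA-treated and LA-treated mice *Tgfb2* did not pass either (adjusted p = 0.143 with the filter at 0.1 FPKM and 0.140 without any, limma and Benjamini-Hochberg).

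*Tgfb3* (ENSMUSG00000021253, chromosome 12, 86056745 to 86079041), the remaining ligand, was at 0.219, 0.261 and 0.280 FPKM in ND-fed mice, 0.990, 0.387 and 0.699 in control mice, 0.290, 0.473 and 0.143 in HYA-treated mice, and 0.735, 0.596 and 0.411 in LA-treated mice. Control mouse 1 was the highest and HYA-treated mouse 3 the lowest of the 12 mice, control and LA-treated mice lay above all ND-fed mice, and HYA-treated mice overlapped every other group. The 3 ND-fed mice held 44 fragments of *Tgfb3* in all, the control mice 149, the HYA-treated mice 60 and the LA-treated mice 127. Against ND-fed mice the exact permutation p was 0.1 for controls and 0.1 with LA, where 0.1 is the smallest possible, and HYA-treated and control mice gave 0.2. Among genes averaging 0.1 FPKM or more the adjusted p was 0.0409 between control and ND-fed mice, 0.104 between LA-treated and ND-fed mice and 0.197 between HYA-treated and control mice (limma and Benjamini-Hochberg). Without any filter these were 0.0647, 0.154 and 0.273. Exons of *Tgfb2* and *Tgfb3* share bases with genes on the opposite strand, and those of *Tgfbr3* with a gene on the same strand, which were at a mean of at most 0.0147 FPKM.

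Promoter windows from 250 bases before to 50 after the RefSeq start (build GRCm38.p6) were found for 6 of the 10 genes, *Tgfb1*, *Tgfb2*, *Tgfbr1*, *Tgfbr2*, *Smad3* and *Smad6*. They were searched on both strands for GTCTAGAC (the palindrome bound by SMAD3 and SMAD4), CAGACA (a Smad element) and TGANTCA (the AP-1 element). Over all 32817 windows of this length, 0.213%, 21.0% and 7.81% held these letters. The windows of *Tgfb1* (chr7:25686752-25687051, plus strand) and *Tgfbr2* (chr9:116175314-116175613, minus strand), the genes called in both control and LA-treated against ND-fed mice, held none of them. Of 2 windows of *Tgfbr1*, 1 held CAGACA. Those of *Smad6* (chr9:64022010-64022309, minus strand) and *Tgfb2* (chr1:186705940-186706239, minus strand) are shown for the match each holds, in capitals. No match of a motif overlapped that of another, and a match is a description of the letters only.
Tgfb1: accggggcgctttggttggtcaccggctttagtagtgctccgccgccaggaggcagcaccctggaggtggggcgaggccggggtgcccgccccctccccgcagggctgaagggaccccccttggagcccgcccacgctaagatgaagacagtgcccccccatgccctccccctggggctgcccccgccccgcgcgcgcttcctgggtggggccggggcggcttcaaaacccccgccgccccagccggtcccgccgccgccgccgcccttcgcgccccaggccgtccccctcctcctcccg
Tgfbr2: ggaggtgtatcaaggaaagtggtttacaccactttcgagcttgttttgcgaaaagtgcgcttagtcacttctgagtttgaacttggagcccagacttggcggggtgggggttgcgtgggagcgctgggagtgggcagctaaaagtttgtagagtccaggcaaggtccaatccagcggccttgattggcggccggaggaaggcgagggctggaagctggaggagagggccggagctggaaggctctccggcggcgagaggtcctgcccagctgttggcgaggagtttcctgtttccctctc
Smad6: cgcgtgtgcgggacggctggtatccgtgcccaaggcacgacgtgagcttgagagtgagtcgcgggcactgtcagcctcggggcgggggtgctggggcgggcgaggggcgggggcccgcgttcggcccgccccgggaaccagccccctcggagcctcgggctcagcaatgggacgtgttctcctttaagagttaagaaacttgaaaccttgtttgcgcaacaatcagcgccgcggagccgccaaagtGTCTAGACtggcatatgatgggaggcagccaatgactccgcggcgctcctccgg
Tgfb2: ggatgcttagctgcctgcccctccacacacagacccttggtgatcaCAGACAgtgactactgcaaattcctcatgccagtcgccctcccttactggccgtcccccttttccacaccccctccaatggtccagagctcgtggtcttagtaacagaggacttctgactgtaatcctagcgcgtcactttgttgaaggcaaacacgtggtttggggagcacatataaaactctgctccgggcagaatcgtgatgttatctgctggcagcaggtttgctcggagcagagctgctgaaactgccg

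By group mean *Tgfbr1* and *Tgfbr2* were more abundant per length than any of the ligands, and *Tgfbr3* was not. *Tgfbr2* (ENSMUSG00000032440, chromosome 9, 116084293 to 116175360), the type II receptor that binds ligand first, was at 5.26, 4.55 and 5.05 FPKM in ND-fed mice, 11.6, 8.24 and 6.37 in control mice, 6.21, 7.33 and 7.54 in HYA-treated mice, and 8.03, 7.26 and 9.01 in LA-treated mice. Control mouse 1 was the highest of all mice, and the 3 ND-fed mice were below each of the 9 others. Group means ± SD (n = 3) were 4.95 ± 0.362, 8.75 ± 2.67, 7.03 ± 0.714 and 8.10 ± 0.880 FPKM in ND-fed, control, HYA-treated and LA-treated mice. *Tgfbr2* was higher in control (log2 difference 0.68, 95% interval 0.32 to 1.03, adjusted p = 0.00812) and in LA-treated (log2 difference 0.61, 95% interval 0.25 to 0.96, adjusted p = 0.0152) than in ND-fed mice (limma and Benjamini-Hochberg). The call between control and ND-fed mice held in all 15 alternative settings (adjusted p from 0.00123 to 0.0364, limma and Benjamini-Hochberg), and that between LA-treated and ND-fed mice was lost without ND-fed mouse 2 (0.0540) or LA-treated mouse 3 (0.0557). HYA-treated mice overlapped control mice (log2 difference −0.25, 95% interval −0.60 to 0.11, adjusted p = 0.458, limma and Benjamini-Hochberg), and their difference from ND-fed mice did not pass (log2 difference 0.43, 95% interval 0.074 to 0.79, adjusted p = 0.0951, limma and Benjamini-Hochberg), except in a fit of only these groups (adjusted p = 0.0219; 0.0219 to 0.229 over all alternatives).

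*Tgfbr1* (ENSMUSG00000007613, chromosome 4, 47353222 to 47414931) encodes the type I receptor that phosphorylates SMAD2 and SMAD3. Its mRNA was at 5.28, 5.91 and 5.92 FPKM in ND-fed mice, 6.93, 6.26 and 6.51 in control mice, 5.80, 5.39 and 5.69 in HYA-treated mice, and 5.98, 6.96 and 6.89 in LA-treated mice. Control mice lay above all ND-fed and all HYA-treated mice, and HYA-treated mice lay below all LA-treated and overlapped ND-fed mice. The differences did not pass, neither control against ND-fed (log2 difference 0.18, 95% interval 0.027 to 0.33, adjusted p = 0.0657), nor HYA-treated against control (log2 difference −0.19, 95% interval −0.34 to −0.042, adjusted p = 0.159), nor HYA-treated against LA-treated mice (log2 difference −0.20, 95% interval −0.35 to −0.048, adjusted p = 0.167, limma and Benjamini-Hochberg). Median-ratio scaling brought control against ND-fed mice past the threshold (0.0317, limma and Benjamini-Hochberg). Rescaled to TPM, which moved the median of all genes, the adjusted p of *Tgfbr1* was 0.00221 for control against ND-fed and 0.0483 for HYA-treated against control mice (limma and Benjamini-Hochberg). Scaled to fragments on genes these were 0.00441 and 0.0640. Over all alternatives these ranged from 0.00221 to 0.201 and from 0.0483 to 0.440, respectively (limma and Benjamini-Hochberg). LA-treated mice lay above all ND-fed mice and did not pass either (log2 difference 0.18, 95% interval 0.033 to 0.33, adjusted p = 0.0634, limma and Benjamini-Hochberg), except without LA-treated mouse 1 (adjusted p = 0.0268) and under median-ratio scaling (0.0330), TPM (0.00246) and scaling to fragments on genes (0.00524).

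*Tgfbr3* (ENSMUSG00000029287, chromosome 5, 107106570 to 107289629) encodes betaglycan, a co-receptor that presents ligand. It lay between 1.86 and 2.09 FPKM in ND-fed mice and between 2.08 and 2.97 FPKM in the 9 mice on a high-fat diet. Control and HYA-treated mice were above all ND-fed mice. No comparison passed (control against ND-fed mice: log2 difference 0.24, 95% interval −0.0020 to 0.49, adjusted p = 0.114, limma and Benjamini-Hochberg), except under TPM for control (adjusted p = 0.0155) and LA-treated (0.0267) against ND-fed mice. Scaled to fragments on genes the same 2 comparisons passed (0.0244 and 0.0447).

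Of the receptor-regulated Smads, *Smad3* (ENSMUSG00000032402, chromosome 9, 63646767 to 63757994), whose product binds DNA and drives collagen genes, was at 3.92, 3.26 and 4.86 FPKM in ND-fed mice, 3.15, 3.18 and 3.16 in control mice, 3.16, 2.49 and 2.94 in HYA-treated mice, and 3.37, 3.50 and 3.49 in LA-treated mice. ND-fed mice were above each control and each HYA-treated mouse and overlapped LA-treated mice, and LA-treated mice were above each control and each HYA-treated mouse. Group means ± SD (n = 3) were 4.01 ± 0.803, 3.16 ± 0.0145, 2.87 ± 0.344 and 3.45 ± 0.0709 FPKM in ND-fed, control, HYA-treated and LA-treated mice. *Smad3* was lower in HYA-treated than in ND-fed mice (log2 difference −0.37, 95% interval −0.59 to −0.14, adjusted p = 0.0338, limma and Benjamini-Hochberg), while the difference between control and ND-fed mice (log2 difference −0.26, 95% interval −0.48 to −0.029, adjusted p = 0.0756) and that between HYA-treated and LA-treated mice (log2 difference −0.21, 95% interval −0.43 to 0.020, adjusted p = 0.333) did not pass (limma and Benjamini-Hochberg). The call held in 7 of 15 alternative settings (adjusted p from 0.00969 to 0.120, limma and Benjamini-Hochberg). It was lost without a filter (0.0795), in a fit of only these groups (0.110), under TPM (0.0872), scaled to fragments on genes (0.0759), without ND-fed mouse 1 (0.0718) or 3 (0.0867) and without HYA-treated mouse 2 (0.120) or 3 (0.0653). Without ND-fed mouse 2, *Smad3* passed also between control and ND-fed mice (−0.37, adjusted p = 0.0146, limma and Benjamini-Hochberg). *Smad2* (ENSMUSG00000024563, chromosome 18, 76241580 to 76305731), the other Smad phosphorylated by TGFBR1, lay between 3.83 and 5.75 FPKM, both in ND-fed mice, so that the other 3 groups lay within their range. No comparison of *Smad2* passed (adjusted p from 0.669 to 0.999, limma and Benjamini-Hochberg).

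The inhibitory Smads act against the signal, SMAD7 mainly at TGFBR1 and SMAD6 mainly in the bone morphogenetic protein (BMP) branch. *Smad6* (ENSMUSG00000036867, chromosome 9, 63953076 to 64022059) was at 2.81, 2.81 and 2.46 FPKM in ND-fed mice, 3.85, 2.53 and 4.38 in control mice, 3.70, 3.72 and 2.93 in HYA-treated mice, and 4.43, 3.79 and 3.68 in LA-treated mice. Control mouse 2 lay within the range of ND-fed mice, and the other 8 mice on a high-fat diet were above it. *Smad6* was higher in LA-treated than in ND-fed mice (log2 difference 0.43, 95% interval 0.12 to 0.73, adjusted p = 0.0399, limma and Benjamini-Hochberg), a call that was lost in 9 of 15 alternative settings, among them the omission of any mouse of these groups (adjusted p from 0.0606 to 0.131, limma and Benjamini-Hochberg). Between control and ND-fed mice it did not pass (log2 difference 0.29, 95% interval −0.018 to 0.60, adjusted p = 0.131), but did without control mouse 2 (0.47, adjusted p = 0.00718, limma and Benjamini-Hochberg), under TPM (0.0283) and scaled to fragments on genes (0.0421). *Smad7* (ENSMUSG00000025880, chromosome 18, 75367529 to 75395935) lay between 1.86 and 2.53 FPKM in ND-fed mice and between 2.13 and 3.27 in the 9 others. HYA-treated mice were above all ND-fed mice, and no comparison of *Smad7* passed (HYA-treated against ND-fed mice: log2 difference 0.25, 95% interval −0.016 to 0.51, adjusted p = 0.180, limma and Benjamini-Hochberg), except between LA-treated and ND-fed mice without LA-treated mouse 3 (adjusted p = 0.0361, limma and Benjamini-Hochberg) and, under TPM, control (0.0349) and LA-treated (0.0182) against ND-fed mice. Scaled to fragments on genes LA-treated against ND-fed mice passed too (0.0346).

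**Figure D2:**
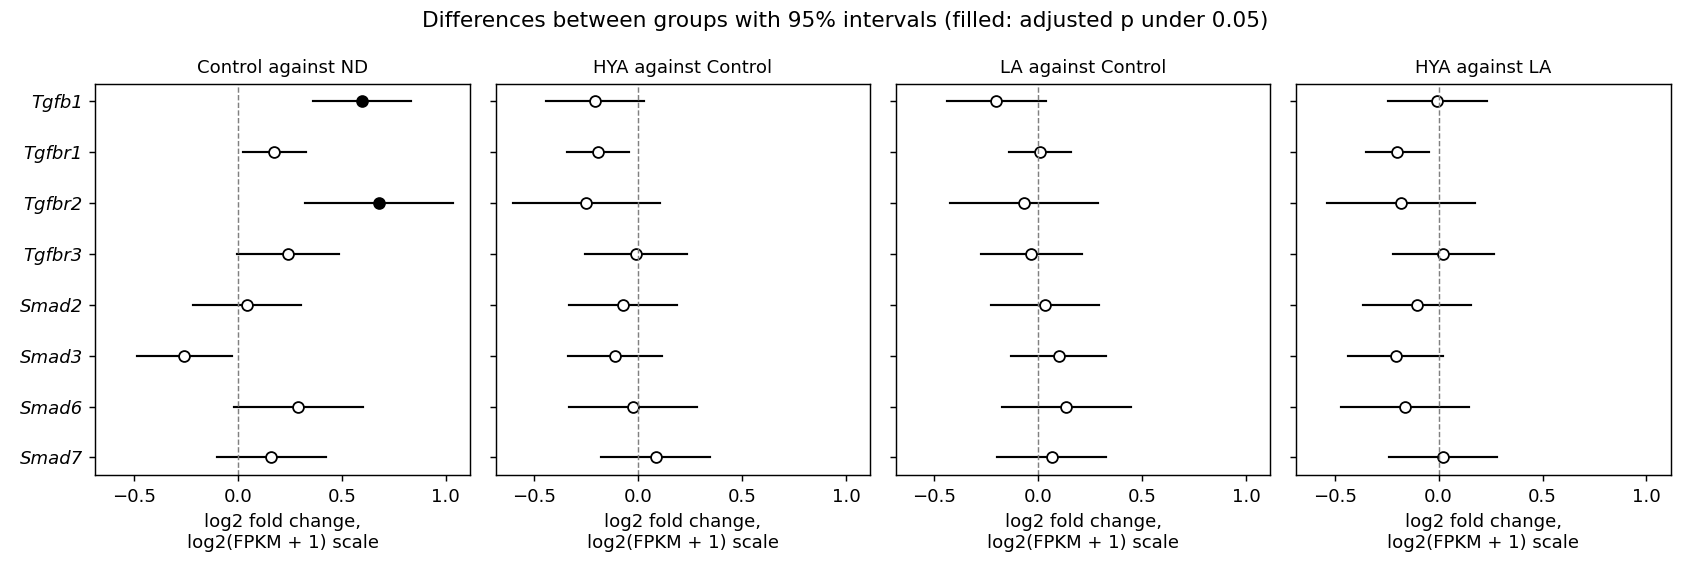
Differences between groups for the 8 tested genes on the log2(FPKM + 1) scale (horizontal axis), with bars for 95% intervals and filled points for an adjusted p under 0.05. Filled points are seen for *Tgfb1* and *Tgfbr2* in control against ND-fed mice, and in none of the other 3 comparisons plotted.

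Counted over the 8 tested genes, *Tgfb1* and *Tgfbr2* were higher and 0 were lower in control mice than in ND-fed mice, where 16.2% of all tested genes were higher and 19.1% lower, 35.3% together (limma). The median log2 difference was 0.21 over the 8 genes and −0.043 over all tested genes. In HYA-treated against ND-fed mice *Tgfb1* was higher and *Smad3* lower, among 8.72% of all genes higher and 7.85% lower (16.6% together). In LA-treated against ND-fed mice *Tgfb1*, *Tgfbr2* and *Smad6* were higher and 0 lower, among 14.4% higher and 16.6% lower (31.1% together). The 1836 genes of HYA-treated against ND-fed mice fell to 1193 without ND-fed mouse 2. These comparisons share the ND-fed mice. In either direction the shares of 2, 2 and 3 of 8 genes stood near those of all genes on this scale, but those of control and LA-treated against ND-fed mice depended on the scaling. Under TPM 6, 1 and 6 of the 8 passed, all higher, beside 40.8%, 18.4% and 38.2% of all genes. Scaled to fragments on genes 5, 1 and 6 passed, all higher, beside 36.5%, 17.2% and 32.9%. With an absolute log2 difference above 1 besides, 0 of the 8 genes were counted in any comparison, where the share of all genes was 3.88% for control against ND-fed, 1.89% for HYA-treated against ND-fed, 3.49% for LA-treated against ND-fed, 0.307% for HYA-treated against control, 0% for LA-treated against control, and 0.108% for HYA-treated against LA-treated mice.

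In HYA-treated against control mice 0 of the 8 genes passed by limma, with 1 (*Tgfbr1*) at an unadjusted p under 0.05, 0 by voom and 1 (*Tgfbr1*) under TPM. Of all genes 2.8% passed on the FPKM scale and 4.48% under TPM, and 18.5% had an unadjusted p under 0.05 on the FPKM scale (limma). The 310 genes that passed on the FPKM scale became 29, 653 and 80 on leaving out control mouse 1, 2 and 3, and 84, 0 and 59 on leaving out HYA-treated mouse 1, 2 and 3. In LA-treated against control mice 0 of the 8 passed by limma, 0 had an unadjusted p under 0.05, 0 passed by voom, and 0% of all genes passed, with 294 genes at an unadjusted p under 0.05. Both comparisons share the control mice. Rescaling to TPM moved the median log2 difference of all genes by 0.21 in control against ND-fed and by −0.11 in HYA-treated against control mice, −0.11 in HYA-treated against LA-treated and 0.21 in LA-treated against ND-fed mice. It gave 3792 higher and 732 lower genes in place of 1795 and 2115 in control against ND-fed mice, 1623 and 412 in place of 966 and 870 in HYA-treated against ND-fed mice, and 3615 and 618 in place of 1600 and 1845 in LA-treated against ND-fed mice. In HYA-treated against control mice it gave 97 higher and 400 lower, where 136 of 310 had been lower, and in HYA-treated against LA-treated mice 31 and 134, where 28 of 54 had been lower. Scaled to fragments on genes, 0, 0 and 0 of the 8 genes passed in HYA-treated against control, LA-treated against control and HYA-treated against LA-treated mice, beside 431, 0 and 94 of all genes. It gave 3193 higher and 851 lower genes in control against ND-fed mice. Relative to the median of all genes, *Tgfb1* differed by 0.64 and *Tgfbr2* by 0.72 in control against ND-fed mice before rescaling, and by 0.74 and 0.79 under TPM. For *Smad3* the values were −0.21 and −0.25.

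HYA and LA were given at the same dose and for the same time, and this 1 pair of fatty acids was compared directly, with adjustment over all genes. Of the 8 genes 0 passed by limma (1, *Tgfbr1*, at an unadjusted p under 0.05, 0 by voom and 0 under TPM). Of all tested genes 0.487% passed, and 17.2% had an unadjusted p under 0.05 (limma). The count of all genes that passed, 54, fell to 20, 0 and 9 without HYA-treated mouse 1, 2 and 3 and to 0, 0 and 9 without LA-treated mouse 1, 2 and 3. For *Tgfb1* the difference of HYA-treated from LA-treated mice was −0.0060 (95% interval −0.24 to 0.23), for *Tgfbr2* −0.18 (−0.54 to 0.17), and for *Smad7* 0.021 (−0.24 to 0.28) on the log2 scale, the last changing sign under TPM (−0.077). The intervals of *Tgfb1*, *Tgfbr2* and *Smad7* include 0 and do not show that the fatty acids act alike. The interval of *Tgfbr1* lay below 0 (−0.35 to −0.048) without adjustment for the number of genes, and that of *Smad3* included 0 (−0.43 to 0.020).

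**Figure D3:**
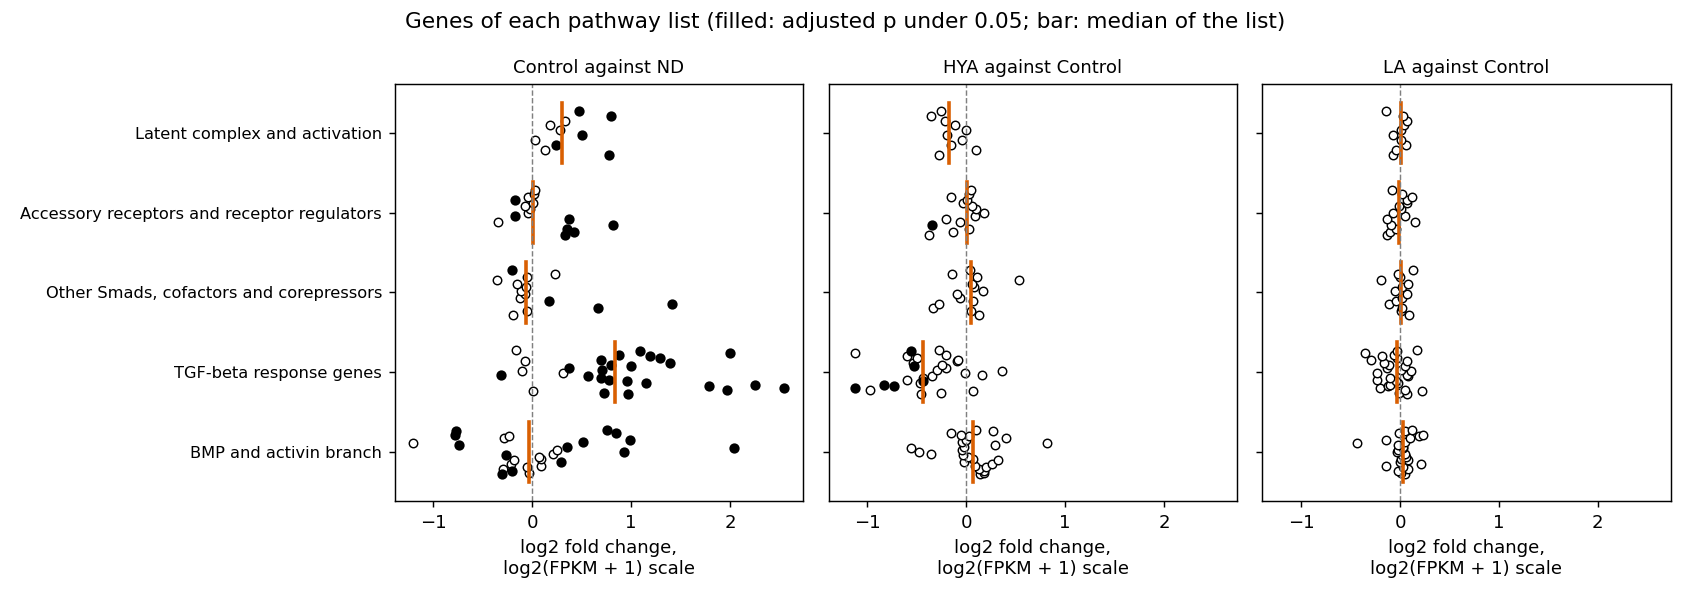
Log2 difference on the log2(FPKM + 1) scale (horizontal axis) of each tested gene of 5 pathway lists in 3 comparisons, with filled points for an adjusted p under 0.05 and a bar for the median of the list. Most filled points of the TGF-β response genes lie right of 0 in control against ND-fed mice and all lie left of 0 in HYA-treated against control mice, and none is filled in LA-treated against control mice.

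Genes known to respond to TGF-β, among them collagens and contractile proteins, made a list of 34, of which 28 were tested. This list and those below were chosen with earlier results of these data known, so their shares beside all genes are descriptions only. In control against ND-fed mice 22 were higher and 1 lower (82.1%, against 35.3% of all genes; median log2 difference 0.84, against −0.043 over all genes). *Col3a1*, which encodes a fibrillar collagen, was at 2.52, 2.86 and 3.51 FPKM in ND-fed and 21.2, 13.96 and 18.9 in control mice (log2 difference 2.25, SE 0.16, adjusted p = 4.32e-06, limma and Benjamini-Hochberg). *Col1a2*, a chain of type I collagen, was at 0.728, 0.917 and 0.936 FPKM and 6.35, 4.34 and 5.77 (log2 difference 1.79, SE 0.14, adjusted p = 9.44e-06, limma and Benjamini-Hochberg). The groups did not overlap for either gene. The lower gene was *Fn1*, which encodes fibronectin and is also expressed by hepatocytes, and 0 were lower under TPM and 0 scaled to fragments on genes.

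In HYA-treated against control mice 0 of these 28 genes were higher and 6 lower (21.4%, against 1.23% of all genes lower; median −0.44, against 0.019 over all genes), namely *Col1a1*, *Col1a2*, *Col3a1*, *Col5a2*, *Postn* and *Tpm1*. *Tpm1*, which encodes a tropomyosin, was at 11.2, 8.25 and 10.3 FPKM in control and 6.72, 6.47 and 5.93 in HYA-treated mice (log2 difference −0.56, SE 0.10, adjusted p = 0.0255, limma and Benjamini-Hochberg). *Col1a1*, the other chain of type I collagen, was at 13.2, 7.72 and 11.1 and 4.93, 3.08 and 5.01 FPKM (log2 difference −1.12, SE 0.21, adjusted p = 0.0293, limma and Benjamini-Hochberg). All 3 HYA-treated mice were below all control mice for both genes. In this comparison 17 of the 28 had an unadjusted p under 0.05, against 18.5% of all genes (limma). In LA-treated against control mice 0 of the 28 passed (0 at an unadjusted p under 0.05, limma; by voom 0 of all genes passed; median −0.034), and directly between HYA-treated and LA-treated mice *Tpm1* was lower (log2 difference −0.54, SE 0.10, adjusted p = 0.0477, limma and Benjamini-Hochberg), against 0.253% of all genes lower. The median of the list was −0.39 there, and 15 of the 28 had an unadjusted p under 0.05, against 17.2% of all genes (limma). Under TPM 3 genes were lower and by voom 5. Without a filter 0 were lower and with a filter at 0.1 FPKM 0 (adjusted p of *Tpm1* 0.0946 and 0.0668, limma and Benjamini-Hochberg). These calls depended on single mice. Over mice left out, the log2 difference of HYA-treated from control mice was −1.32 to −0.94 for *Col1a1*. It was −0.86 to −0.63 for *Col1a2* and −0.68 to −0.48 for *Tpm1*. Without control mouse 1 or 3, or HYA-treated mouse 1, 2 or 3, 0 of the 28 genes were lower than in control mice, without control mouse 2 there were 10, and in a fit of only these groups or without a filter 0. The genes past the adjusted p among all tested were then 29, 653 and 80 without control mouse 1, 2 and 3, and 84, 0 and 59 without HYA-treated mouse 1, 2 and 3, in place of 310 (limma). The call of *Tpm1* against LA-treated mice was lost without any mouse of these groups (adjusted p from 0.0842 to 0.239, limma and Benjamini-Hochberg).

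Of 19 genes that hold TGF-β latent or release it, 10 were tested, and 5 were higher and 0 lower in control mice than in ND-fed mice (50%, against 16.2% of all genes higher and 19.1% lower; median 0.30). Scaled to fragments on genes 9 were higher, as were 3193 of all genes. With no filter or one at 0.1 FPKM, which test more genes of the list, 10 were higher. That count is not set beside the share of all genes under these filters, so it cannot be judged against it. Under TPM these were 10 and 3792 of all 11083 tested genes. *Mmp2*, a matrix metalloproteinase, was at 0.625, 0.766 and 0.726 FPKM in ND-fed, 1.95, 1.68 and 2.28 in control and 1.22, 1.47 and 1.22 in HYA-treated mice. Its groups did not overlap in either comparison, and it passed between control and ND-fed mice (log2 difference 0.80, SE 0.094, adjusted p = 0.000125) and not between HYA-treated and control mice (log2 difference −0.36, SE 0.094, adjusted p = 0.0698, limma and Benjamini-Hochberg). *Emilin1*, whose product limits the processing of the TGF-β precursor, was at 5.59, 4.26 and 5.54 FPKM in ND-fed, 10.2, 7.85 and 10.4 in control and 8.55, 6.38 and 8.05 in HYA-treated mice (log2 difference 0.77, SE 0.13, adjusted p = 0.000885 for control against ND-fed and log2 difference −0.28, SE 0.13, adjusted p = 0.274 for HYA-treated against control mice, limma and Benjamini-Hochberg). *Mmp2* passed in the latter without control mouse 2 (adjusted p = 0.0333), under TPM (0.0338) and scaled to fragments on genes (0.0398; 0.0333 to 0.209 over all alternatives). In HYA-treated against control mice 0 of the 10 passed by limma and 0 by voom, with a median of −0.17. There 1 of the 10 had an unadjusted p under 0.05, against 18.5% of all genes (limma).

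Of 17 accessory receptors and regulators of the receptors, 15 were tested, with 5 higher and 2 lower in control mice than in ND-fed mice (46.7%, near the 35.3% of all genes; median 0.010) and in HYA-treated against control mice 0 higher and 1 lower (1.23% of all genes lower; median 0.0040). *Fkbp1a*, whose product binds the type I receptor and keeps it inactive without ligand, was at 13.3, 12.5 and 13.3 FPKM in ND-fed, 24.5, 22.1 and 24.4 in control, 18.4, 17.2 and 19.7 in HYA-treated and 24.4, 21.1 and 21.03 in LA-treated mice. HYA-treated mice lay between the ranges of ND-fed and control mice without overlap. It was higher in control mice than in ND-fed mice (log2 difference 0.81, SE 0.073, adjusted p = 2.12e-05) and lower in HYA-treated mice than in controls (log2 difference −0.34, SE 0.073, adjusted p = 0.0390, limma and Benjamini-Hochberg), a call that was lost on leaving out any 1 of the 6 mice other than control mouse 2 (adjusted p from 0.0219 to 0.161 over mice left out, limma and Benjamini-Hochberg), without a filter (0.0704) and in a fit of only these groups (0.150). In control against ND-fed mice higher genes fell from 5 to 2 without control mouse 1 and to 3 without ND-fed mouse 2 or 3 or control mouse 3 and in a fit of only these groups, and rose to 8 under TPM. Lower genes were 0 under each other scaling, in a fit of only these groups and without control mouse 1 or 3. They were 1 without ND-fed mouse 1 or 2 or control mouse 2. *Dab2*, an adaptor of the receptors, was higher in control mice than in ND-fed mice (log2 difference 0.42, SE 0.082, adjusted p = 0.00249, limma and Benjamini-Hochberg), and *Acvrl1*, a type I receptor of endothelium, was at 1.65, 1.32 and 1.55 FPKM in control and 0.907, 1.18 and 0.721 in HYA-treated mice (log2 difference −0.38, SE 0.11, adjusted p = 0.0868, limma and Benjamini-Hochberg).

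Of 17 other Smads, cofactors and corepressors, 14 were tested. In control mice 3 were higher and 1 lower than in ND-fed mice (28.6%, near the 35.3% of all genes), with a median of −0.068. In HYA-treated against control mice 0 passed by limma and 1 by voom, with a median of 0.052. There 1 of the 14 had an unadjusted p under 0.05, against 18.5% of all genes (limma). *Jun*, a subunit of AP-1, was at 12.5, 5.43 and 5.13 FPKM in ND-fed and 24.7, 17.8 and 19.8 in control mice (log2 difference 1.41, SE 0.25, adjusted p = 0.00139, limma and Benjamini-Hochberg). *Ppm1a*, a phosphatase of SMAD2 and SMAD3, was at 9.68, 9.74 and 10.03 and 11.2, 11.7 and 10.6 FPKM (log2 difference 0.17, SE 0.052, adjusted p = 0.0248, limma and Benjamini-Hochberg), and its call was lost in a fit of only these groups (0.0833) and without ND-fed mouse 1 (0.0650) or 2 (0.0649) and control mouse 1 (0.0661) or 2 (0.0824). Groups did not overlap for either gene. Higher genes fell to 1 without ND-fed mouse 2 or control mouse 1 and in a fit of only these groups. Lower genes were 0 under each other scaling, without a filter, in a fit of only these groups and without ND-fed mouse 1 or 3 or control mouse 1 or 2, and 2 by voom. *Smad9*, a Smad of the BMP branch, was at 1.32, 1.37 and 1.08 FPKM in control, 1.83, 2.59 and 2.41 in HYA-treated and 0.699, 0.900 and 1.35 in LA-treated mice. Its HYA-treated mice were above all control and all LA-treated mice, but neither difference passed (log2 difference 0.54, SE 0.14, adjusted p = 0.0688 against control and log2 difference 0.73, SE 0.14, adjusted p = 0.0527 against LA-treated mice, limma and Benjamini-Hochberg). By voom the difference from control mice did (adjusted p = 0.0449; 0.0449 to 0.233 over all alternatives). Against LA-treated mice 0 of the 14 genes passed by limma (2 at an unadjusted p under 0.05, against 17.2% of all genes), and 1 was higher by voom and 1 under TPM. For *Crebbp*, a coactivator, HYA-treated against control mice gave log2 difference 0.13, SE 0.072, adjusted p = 0.358 (limma and Benjamini-Hochberg).

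Of 36 genes of the BMP and activin branch, 27 were tested. In control mice 8 were higher and 6 lower than in ND-fed mice (51.9%, against 35.3% of all genes, 16.2% higher and 19.1% lower), with a median of −0.030. In HYA-treated against control mice 0 passed by limma and 0 by voom, with a median of 0.065. There 6 of the 27 had an unadjusted p under 0.05, against 18.5% of all genes (limma). In control against ND-fed mice 2 were lower under TPM and 3 scaled to fragments on genes, and 5 were higher on leaving out control mouse 1. In HYA-treated against control mice 1 was lower on leaving out control mouse 2. *Gdf15*, a secreted member of the superfamily induced by stress, was at 3.87, 1.90 and 1.92 FPKM in ND-fed and 17.02, 7.99 and 16.9 in control mice (log2 difference 2.04, SE 0.27, adjusted p = 0.000268, limma and Benjamini-Hochberg). *Fstl1*, a secreted follistatin-like protein, was at 1.33, 1.06 and 1.52 FPKM in ND-fed, 4.14, 2.95 and 3.10 in control and 2.68, 1.89 and 1.94 in HYA-treated mice (log2 difference 0.93, SE 0.13, adjusted p = 0.000402 for control against ND-fed and log2 difference −0.47, SE 0.13, adjusted p = 0.0841 for HYA-treated against control mice, limma and Benjamini-Hochberg). *Bmp6*, which regulates hepcidin, was at 1.44, 1.22 and 1.27 FPKM in control and 1.82, 1.81 and 2.01 in HYA-treated mice without overlap (log2 difference 0.32, SE 0.090, adjusted p = 0.0883, limma and Benjamini-Hochberg).

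**Figure D4:**
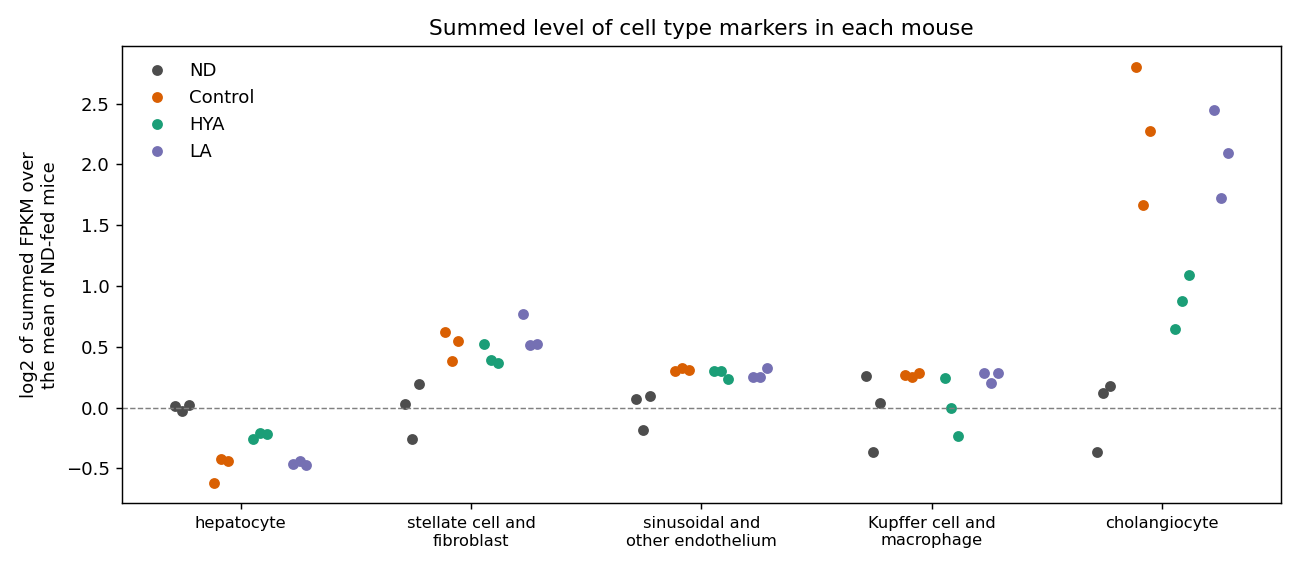
Summed FPKM of 5 lists of cell type markers in each mouse, as log2 of the ratio to the mean of ND-fed mice (vertical axis), by list and diet group. The HYA-treated mice lie between the ranges of ND-fed and control mice for the hepatocyte and the cholangiocyte list, the latter being mostly *Spp1*.

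Markers of cell types moved with the diets. Beside the counts below, 16.2% of all tested genes were higher and 19.1% lower in control mice than in ND-fed mice, 3792 of all 11083 tested genes were higher there under TPM and 3193 scaled to fragments on genes, and 1.23% were lower in HYA-treated mice than in controls. The 7 hepatocyte markers summed to 41240, 40020 and 41410 FPKM in ND-fed mice, 26670, 30520 and 30100 in control mice, 34230, 35410 and 35120 in HYA-treated mice, and 29680, 30090 and 29420 in LA-treated mice, and 5 of the 7 were lower in control mice than in ND-fed mice (3 without a filter). HYA-treated mice lay between the ranges of ND-fed and control mice, but 0 of the 7 passed against control mice by limma, 2 by voom and 3 without control mouse 2. At an unadjusted p under 0.05 were 5 of the 7, against 18.5% of all genes (limma). The 13 markers of stellate cells and fibroblasts, the main source of collagen in liver, summed to 130, 107 and 146 FPKM in ND-fed mice, 197, 166 and 187 in control mice, 184, 167 and 164 in HYA-treated mice, and 218, 182 and 183 in LA-treated mice, with *Ecm1* the most abundant and none at 0 in every mouse. Of the 12 tested, 5 were higher in control mice than in ND-fed mice and 1 lower in HYA-treated mice than in controls, and the sums of the ND-fed mice were below the 9 others. In HYA-treated against control mice 4 of the 12 had an unadjusted p under 0.05, against 18.5% of all genes (limma). There 8 of the 12 lay below 0 and 4 above (median log2 difference −0.11, against 0.019 over all genes). Directly against LA-treated mice 5 of the 12 had an unadjusted p under 0.05, against 17.2% of all genes (limma). Under TPM 10 and scaled to fragments on genes 9 were higher in control mice than in ND-fed mice, and with other filters, in a fit of only 2 groups or on leaving out any 1 mouse other than control mouse 2, 0 were lower in HYA-treated mice than in controls. The part of these cells in the levels of *Tgfb1*, *Tgfbr2* and the response genes was not tested.

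The shares of all genes given above (16.2% higher, 19.1% lower and, in HYA-treated against control mice, 1.23% lower) apply to these lists too. The 11 endothelial markers, *Clec4g* the most abundant, summed to 92.7 ± 9.72 FPKM in ND-fed and 115 ± 1.14 in control mice (SD, n = 3), and 5 of 10 tested were higher. The 12 markers of Kupffer cells and macrophages, *Cd5l* the most abundant, summed to 357, 231 and 306 FPKM in ND-fed mice, 360, 355 and 363 in control mice, 352, 297 and 253 in HYA-treated mice, and 363, 343 and 363 in LA-treated mice. ND-fed and HYA-treated mice overlapped there, with 5 of 11 higher and 2 lower in control mice than in ND-fed mice and 1 lower in HYA-treated mice than in controls. The 7 cholangiocyte markers summed to 19.2, 26.9 and 27.9 FPKM in ND-fed mice, 172, 78.1 and 119 in control mice, 38.7, 45.2 and 52.5 in HYA-treated mice, and 135, 81.6 and 105 in LA-treated mice. These sums were mostly *Spp1*, which macrophages also express and which was at 15.96, 22.6 and 24.3 FPKM in ND-fed, 166, 74.2 and 113 in control, 35.6, 41.6 and 50.1 in HYA-treated and 128, 77.3 and 101 in LA-treated mice. *Epcam* of the same list was higher in control mice than in ND-fed mice (log2 difference 0.81, SE 0.17, adjusted p = 0.00416, limma and Benjamini-Hochberg). It was lower in HYA-treated mice than in controls (log2 difference −0.84, SE 0.17, adjusted p = 0.0357, limma and Benjamini-Hochberg). *Sox9* did not pass between control and ND-fed mice (log2 difference −0.052, SE 0.18, adjusted p = 0.853) or between HYA-treated and control mice (log2 difference −0.33, SE 0.18, adjusted p = 0.378, limma and Benjamini-Hochberg). In the list 2 of 3 tested were higher in control mice than in ND-fed mice and 2 lower in HYA-treated mice than in controls. Sums were low for monocytes and neutrophils (most abundant *S100a9*; 3.58 ± 0.538 FPKM in ND-fed and 9.54 ± 3.50 in control mice), lymphocytes (*Nkg7*; 3.45 ± 1.06 and 2.44 ± 0.188) and platelets (*Pf4*; 1.36 ± 0.108 and 2.99 ± 0.718), a source of TGF-β1. The platelet marker *Gp1bb* was at 0 in every mouse. In control against ND-fed mice 1 tested platelet marker was higher and 1 tested acinar marker, *Cela1*, lower. The HYA calls of the Kupffer cell and cholangiocyte lists were lost without a filter and in a fit of only these groups. Those of the Kupffer cell list were lost without control mouse 1 or 3 or HYA-treated mouse 1 or 2, and those of the cholangiocyte list on leaving out any 1 mouse other than control mouse 2. In the Kupffer cell list higher genes fell to 3 without ND-fed mouse 2 or control mouse 1 or in a fit of only 2 groups, and lower genes to 1 without ND-fed mouse 1 or control mouse 1 or 3. Under TPM 9 and scaled to fragments on genes 9 endothelial markers were higher in control mice than in ND-fed mice. The part of each of these cell types in the levels of the 10 genes was not tested.

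For *Tgfb1* and *Tgfbr2*, which passed between control and ND-fed mice, the tested genes with the most similar profile over the 12 mice were sought by the root mean square difference of centred log2 values. For *Tgfb1* these were *Hmga1* (0.0771), *Ifngr2* (0.0801) and *Otulinl* (0.0845), where the median over all tested genes was 0.294 log2 units. For *Tgfbr2* they were *Arl2bp* (0.0968), *Timp3* (0.0969) and *Gas2l3* (0.103), with a median over all tested genes of 0.361.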

How the data were processed

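Liver RNA of 12 mice was sequenced from both ends on the Illumina HiSeq platform, and the authors deposited a table of FPKM per gene and mouse. The submitters' processing notes name fastp, HISAT2 2.0.5, featureCounts 1.5.0-p3 and the build GRCm38. The study's methods name TPM, but column totals were unequal (342146 to 429286), so the values were taken as FPKM. Multiplied by gene length, 100% of values were whole multiples of a step per column (tolerance 0.05), read as 1 fragment. Strand of counting is not given in the sources used here.

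Log2(FPKM + 1) was fitted with limma 3.58.1 in R 4.3.3 (empirical Bayes with trend, two-sided, Benjamini-Hochberg), with all 12 mice in 1 fit and no block, over the 11083 genes averaging 1 FPKM or more. The fit was tested on simulated data. Pairs of mice of a group differed beyond counting error (chi-square per degree of freedom 9.71 to 26.5). The library size that the FPKM imply is near but not equal to the fragments on genes; the latter as library size was an alternative chosen after the data were seen. Other alternatives were a pseudocount of 0.1, other filters, median-ratio scaling, TPM, fits of the compared groups only, a replicate block, voom on fragments, a fold threshold, and omission of each mouse; for lists they were added after the data were seen. The members and lists were chosen with earlier results of these data known. Genes named are the 10 members, of each pathway list the 2 with the lowest p in control against ND-fed and in HYA-treated against control mice, the 3 nearest profiles, and the most abundant marker of each list. Other list genes named were chosen after their values were seen.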

Additional observations from a re-analysis of the deposited data

How the results depend on the processing

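Among the tested genes of the pathway, 2 passed in control against ND-fed, 2 in HYA-treated against ND-fed and 3 in LA-treated against ND-fed mice, and 0 in each of the comparisons among mice on a high-fat diet. Under TPM these were 6, 1 and 6 (beside 40.8%, 18.4% and 38.2% of all genes), with 1 in HYA-treated against control mice (4.48%). With the fragments on genes as library size, chosen after the data were seen, they were 5, 1 and 6 (36.5%, 17.2% and 32.9%). With an absolute log2 fold change above 1 they were 0, 0 and 0. A filter at 0.1 FPKM, which tested all 10 genes, gave 4 in control against ND-fed mice. The share of all genes that passed under this filter is not given here, so the 4 cannot be judged against it. In HYA-treated against ND-fed mice no filter gave 0, and a fit of only the compared groups 1, *Tgfbr2* in place of *Tgfb1* and *Smad3*. Leaving out each mouse in turn gave 2 to 3 in control against ND-fed, 0 to 1 in HYA-treated against ND-fed and 0 to 3 in LA-treated against ND-fed mice. The cause was not tested, except that fewer mice or more genes entered some of these fits.

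With the replicate number as a block, 2, 0, 0, 0, 2 and 2 pathway genes passed in control against ND-fed, HYA-treated against control, LA-treated against control, HYA-treated against LA-treated, HYA-treated against ND-fed and LA-treated against ND-fed mice, the last without *Smad6* (adjusted p = 0.0512, limma and Benjamini-Hochberg). The block also brought *Fstl1* of the BMP and activin list past the threshold in HYA-treated against control mice (adjusted p = 0.0245, limma and Benjamini-Hochberg) and gave 7 lower response genes in HYA-treated against LA-treated mice. There it also gave 1 higher gene among other Smads and cofactors, 1 lower gene of the BMP and activin list and 2 lower stellate markers, where 0 had passed. In control against ND-fed mice 1 accessory gene was lower in place of 2, and in HYA-treated against control mice 1 hepatocyte marker higher in place of 0. The block changed the count of all genes from 54 to 258 in HYA-treated against LA-treated mice. For the other comparisons the share of all genes with the block is not given here, so their counts cannot be judged against it. Deviations of mice with the same number correlated at −0.40 to 0.29, above 0.1 in 3 of 18 pairs, and 6 of 12 mice deviated most like those of their own number. These values cannot decide whether the number stands for more than a label, which was not tested.

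Log2 fold changes changed sign only where neither the value nor its alternative passed, and a range is over mice left out in turn. In control against ND-fed mice these were *Smad2* −0.11 to 0.13. In HYA-treated against control mice these were *Smad7* −0.0064 (TPM), *Tgfbr3* 0.00020 (voom), *Tgfbr3* −0.083 to 0.075 and *Smad6* −0.20 to 0.10. In LA-treated against control mice these were *Tgfbr1* −0.0029 (fragments on genes), *Tgfbr2* −0.25 to 0.14, *Tgfbr1* −0.027 to 0.068, *Tgfbr3* −0.14 to 0.045, *Smad6* −0.043 to 0.26, *Smad2* −0.037 to 0.086 and *Smad7* −0.031 to 0.19. In HYA-treated against LA-treated mice these were *Tgfbr3* −0.075 (TPM), *Smad7* −0.077 (TPM), *Tgfbr3* −0.040 (fragments on genes), *Smad7* −0.044 (fragments on genes), *Tgfb1* −0.050 to 0.066, *Tgfbr3* −0.055 to 0.13 and *Smad7* −0.11 to 0.12. In HYA-treated against ND-fed mice these were *Tgfbr1* 0.0027 (median-ratio scaling), *Tgfbr1* 0.087 (TPM), *Smad2* 0.073 (TPM), *Tgfbr1* 0.062 (fragments on genes), *Smad2* 0.046 (fragments on genes), *Smad2* −0.18 to 0.061 and *Tgfbr1* −0.062 to 0.011. In LA-treated against ND-fed mice these were *Smad3* 0.027 (TPM) and *Smad2* −0.077 to 0.16.

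Counts of all genes past the adjusted p moved from 310 in HYA-treated against control mice to 497 under TPM, 105 without a filter and 0 in a fit of only these groups, and from 54 in HYA-treated against LA-treated mice to 165, 0 and 94, with 166 by voom and 94 with the fragments on genes. Leaving out control mouse 1, 2 or 3 gave 29, 653 and 80 in HYA-treated against control mice, and leaving out HYA-treated mouse 1, 2 or 3 gave 84, 0 and 59. In HYA-treated against ND-fed mice the count went from 1836 to 1193 without ND-fed mouse 2, and in LA-treated against control mice from 0 to 1 without a filter. With an absolute log2 difference above 1, 430 of 3910 remained in control against ND-fed, 34 of 310 in HYA-treated against control, 12 of 54 in HYA-treated against LA-treated, 209 of 1836 in HYA-treated against ND-fed and 387 of 3445 in LA-treated against ND-fed mice. Depth limits *Tgfb2* and *Tgfb3*, which had 8 to 72 fragments per mouse. The alternatives of the gene lists were added after the data were seen.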
